A study of Mus musculus with 4 samples.

Results

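B progenitors are the bone marrow cells that rearrange their immunoglobulin genes and assemble the pre-B receptor. Here they were taken from 3 single-cell libraries: control, Mll3 deleted and Mll4 deleted. A barcode (1 captured droplet, taken as a cell) was a member if it passed quality filters and if the summed UMIs of Cd79a, Cd79b, Vpreb1, Vpreb3, Igll1 and Ebf1 reached 20 per 10000 gene UMIs. Quality meant 500 genes or more, 1000 gene UMIs or more and no more than 10% of UMIs from mitochondrial genes. A UMI is a molecular tag that counts 1 captured RNA molecule. Barcodes with at least 1 Ms4a1 UMI and at least 3 Igkc UMIs, the pattern of mature B cells, were left out. The rule gave 1190 members among the 19758 quality-passed barcodes of these libraries, and the whole series has 27166 such barcodes. Control held 535 members, the Mll3 library 492 and the Mll4 library 163.

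All groups were CD45.2+Kit+ mouse bone marrow collected 10 weeks post-transplantation, with barcoded antibodies read from the same cells. CD45.2 is the leukocyte allele that marks the donor-derived cells in such transplants, and Kit (CD117) is the stem cell factor receptor. The remaining library, labelled Mll3/4 deleted, is used only for comparison values. The labels give no allele, promoter, mouse number or sex, and do not say how the control was made or what the 2 hashtag antibodies mark. Each group has 1 library, so intervals describe counting error alone, and what is compared are libraries rather than conditions.

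Mll3 (gene Kmt2c) and Mll4 (gene Kmt2d) are large histone methyltransferases that act at enhancers. In early B cells the factors Tcf3, Ebf1 and Pax5 switch on the B-lineage genes, and Rag1 and Rag2 cut the immunoglobulin loci. A finished heavy chain then pairs with the surrogate light chain, made of VpreB and lambda5 (Igll1), and with the signalling pair Cd79a and Cd79b. This pre-B receptor and the interleukin-7 receptor drive a burst of division, after which light chain genes are rearranged.

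The targeted genes checked the labels only in part. In members, Kmt2c stood at 52.4 CPM (UMIs per 1000000 gene UMIs) in control, 31.98 in the Mll3 library and 41.1 in the Mll4 library. Kmt2d stood at 40.2, 30.1 and 19.5 CPM, the last from 9 UMIs, with a 95% Poisson interval of 8.91 to 37.0. Over all other barcodes Kmt2c was lower in the Mll3 library (27.3 against 48.4 CPM), while Kmt2d in the Mll4 library equalled control (25.5 against 25.7 CPM). The labels do not say which exons are removed, and 3′ counts need not report a deletion elsewhere in the gene. Each deletion library is therefore named by its label from here on, as Mll3-labelled, Mll4-labelled or Mll3/4-labelled. The Mll4-labelled library stood apart in 2 further ways. Its members had no UMI of Xist, the RNA of the inactive X chromosome of female cells, against 1372 CPM in control members and 1275 CPM in Mll3-labelled members. It was also the shallowest, with a median of 2391 UMIs per member against 4661 and 4720.5. What the label, the Xist difference and the depth each contribute cannot be told apart.

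Members carried the B-lineage programme that the rule looks for. The 6 fixed markers (Vpreb1, Vpreb3, Igll1, Ebf1, Cd79a and Rag1) summed to 11312, 9870 and 7407 CPM in members and to 10.5, 30.4 and 8.72 CPM in all other barcodes of control, Mll3-labelled and Mll4-labelled. The rule used 5 of the 6, so these values only describe the choice. Genes outside the rule were present too. After each cell was thinned to 2000 UMIs, Rag1 was seen in 47.4% of control members and in 0 of 1411 erythroid reference cells, whose exact 95% upper limit is 0.261% (69.9% and 0.554% unthinned). Dntt, the enzyme that adds bases at gene joints, was seen in 79.3% of control, 73.1% of Mll3-labelled and 77.5% of Mll4-labelled members (90.8%, 75.8% and 79.1% unthinned). The erythroid reference, cells rich in erythroid genes such as Car1, Car2 and Klf1, showed Dntt in at most 0.421% when thinned alike. Median rates of the rule's genes were 165, 122 and 85.9 per 10000 UMIs, far above the threshold of 20. Just inside it, at 20 to 30, lay 13, 8 and 8 barcodes, and just outside, at 10 to 20, lay 15, 33 and 8. Between 9 and 24 barcodes were shared by any pair of libraries, and 4 members carried a barcode that also occurred in another library.

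Vpreb1 and Vpreb2 encode near-identical VpreB proteins, and reads of one can be assigned to the other. How their UMIs were split was not tested and can be uncertain. In unthinned Mll3/4-labelled members, 99.6% of cells had a Vpreb1 UMI and 0.601% a Vpreb2 UMI. There, few Vpreb1 reads were thus counted as Vpreb2. The copies at the gene starts are shown because the largest change among pre-B receptor genes was in Vpreb2. They do not bear on the split, since 3′ counts need not read them. RefSeq windows around both gene starts (build GRCm38.p6) share a run of 156 bases with 3 differences, an identity of 98.1%. The run lies at chr16:16869206-16869361 on the minus strand for Vpreb1, from -106 to 49 relative to its annotated start. It lies at chr16:17980315-17980470 on the plus strand for Vpreb2, from -250 to -95. Capitals mark the differing bases.
Vpreb1: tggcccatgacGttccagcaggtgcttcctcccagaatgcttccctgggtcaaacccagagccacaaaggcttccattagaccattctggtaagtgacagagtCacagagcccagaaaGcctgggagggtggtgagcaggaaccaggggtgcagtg
Vpreb2: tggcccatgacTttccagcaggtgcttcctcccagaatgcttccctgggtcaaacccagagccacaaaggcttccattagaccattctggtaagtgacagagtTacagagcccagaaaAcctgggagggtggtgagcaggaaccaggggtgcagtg
The E-box CAGGTG, the hexamer bound by Tcf3 and its relatives, was searched on both strands of the 300-base windows. It occurred once in those of Vpreb1, Vpreb2, Igll1, Cd79a and Rag1. It did not occur in those of Vpreb3, Ebf1, Rag2, Dntt, Il7r, Pax5, Enpep, Camk2d, Slc15a2 and Gria2. Of all 32851 windows, 20.2% held it, and 15 of 18 genes looked up had a window.

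B progenitors made up a similar part of the control and Mll3-labelled libraries and a smaller part of the Mll4-labelled library. They were 6.89% of quality-passed barcodes in control (535 of 7768, exact Clopper-Pearson 95% interval 6.33 to 7.47), 7.76% in the Mll3-labelled library (492 of 6341, 7.11 to 8.45) and 2.89% in the Mll4-labelled library (163 of 5649, 2.46 to 3.36). In the Mll3/4-labelled library the same rule took 7323 of 7408 barcodes, 98.9%. The log2 ratio of the share to control was 0.17 (95% interval -0.01 to 0.35) for Mll3-labelled and -1.26 for Mll4-labelled. Within each library the cells of each hashtag can be counted apart. Hashtag1 and Hashtag2 parts gave 5.84% and 7.89% in control, 8.92% and 6.71% in Mll3-labelled, and 2.55% and 3.38% in Mll4-labelled. The Mll4-labelled parts both lay below both control parts. The Mll3-labelled parts overlapped the range of the control parts. At 1000 genes and 3000 UMIs the Mll4-labelled share was 1.17% and its ratio -2.23, in the library with the lowest depth.

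**Figure D1:**
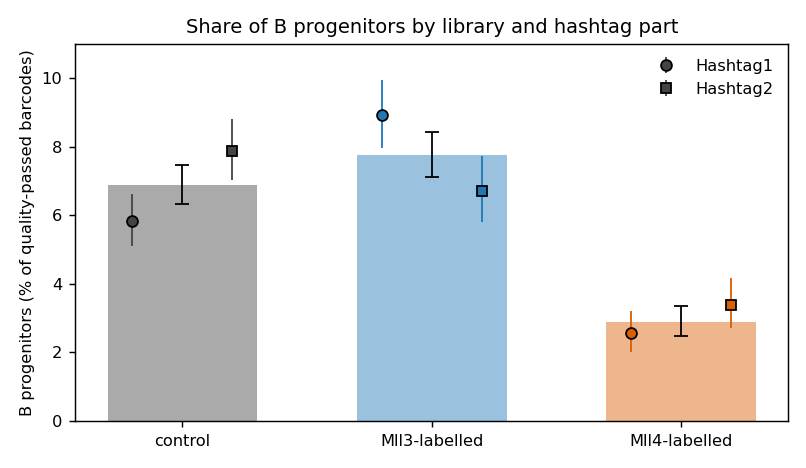
Bars show B progenitors as a percentage of quality-passed barcodes in each library, with exact 95% intervals in black; circles and squares show the Hashtag1 and Hashtag2 parts with their intervals. Both Mll4-labelled parts (2.55% and 3.38%) lie below both control parts (5.84% and 7.89%), while the Mll3-labelled parts (8.92% and 6.71%) straddle the higher control part.

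Across all genes, members were compared by summed UMIs. A gene is called past 2-fold when its log2 ratio to control is at least 1 in size and its exact 95% counting interval excludes 0. Of 10444 genes with at least 20 UMIs in the Mll3-labelled comparison, 85 were past 2-fold higher (0.814%) and 314 lower (3.01%). Of 9691 in the Mll4-labelled comparison, 685 were higher (7.07%) and 271 lower (2.8%). Of the 271, 35 had no UMI in the library, and 22 of these miss 2-fold when 3 counts are assumed, which leaves 249. Without regard to size, 39.4% of tested genes were higher in the first comparison and 57.7% in the second. These shares over all tested genes are the background of every list count below. The median log2 ratio of all tested genes was -0.08 for Mll3-labelled and 0.13 for Mll4-labelled. TMM, a scaling that trims extreme genes, moved the ratios by 0.06 and -0.24, and turned the Mll4-labelled counts into 343 higher and 535 lower. Under this scaling some of the list genes named below no longer reach 2-fold in the Mll4-labelled comparison. They are Irf4, Hes1, Bcl2l11, Btg1, Igkc, H2-Ab1, Mcm2, Ung, Fos, Hdc and Mpo. In the Mll3-labelled comparison both hashtag parts lay above both control parts for 15.3% of tested genes and below for 30.4%. In the Mll4-labelled comparison the shares were 31.9% and 22.8%. Both comparisons share the control library.

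Of the pre-B receptor genes, 5 of 7 are genes of the rule. Of the other 2, Vpreb2 was past 2-fold lower in Mll4-labelled members and Ighm was near control. Vpreb2 stood at 342 CPM in control, 217 in Mll3-labelled, 67.1 in Mll4-labelled and 0.865 in Mll3/4-labelled members. The log2 ratio to control was -0.66 (-0.78 to -0.53) for Mll3-labelled and -2.35 (-2.91 to -1.84) for Mll4-labelled. Control hashtag parts held 399 and 350 CPM, above 209 and 276 in Mll3-labelled and above 48.2 and 83.8 in Mll4-labelled. At 2000 UMIs per cell Vpreb2 was seen in 50.8%, 29.8%, 13.5% and 0.262% of members in the same library order, against 75.7%, 53.5%, 15.3% and 0.601% unthinned. It was seen in none of 1411, 1424 and 399 thinned erythroid reference cells of the first 3 libraries.

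The other genes of the receptor are mostly genes of the rule, and their levels are given as a description. Vpreb1 stood at 2892, 2373, 1451 and 2834 CPM in control, Mll3-, Mll4- and Mll3/4-labelled members. Igll1, the lambda5 chain, stood at 1085, 856, 851 and 1034 CPM. Cd79a stood at 1553, 1417, 996 and 2996 CPM, and Cd79b at 646, 716, 398 and 504 CPM. Ighm, the mu heavy chain and outside the rule, differed little: 892, 972, 966 and 893 CPM. The median log2 ratio of the 7 genes was -0.13 for Mll3-labelled (2 higher, 5 lower, none past 2-fold) and -0.70 for Mll4-labelled (1 higher, 6 lower, 1 past 2-fold), a description since the rule chose most of them. In the latter, Vpreb1 was just short of the fold (interval -1.11 to -0.88), and past it under TMM scaling (-1.23) or with doublets removed (-1.06).

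**Figure D2:**
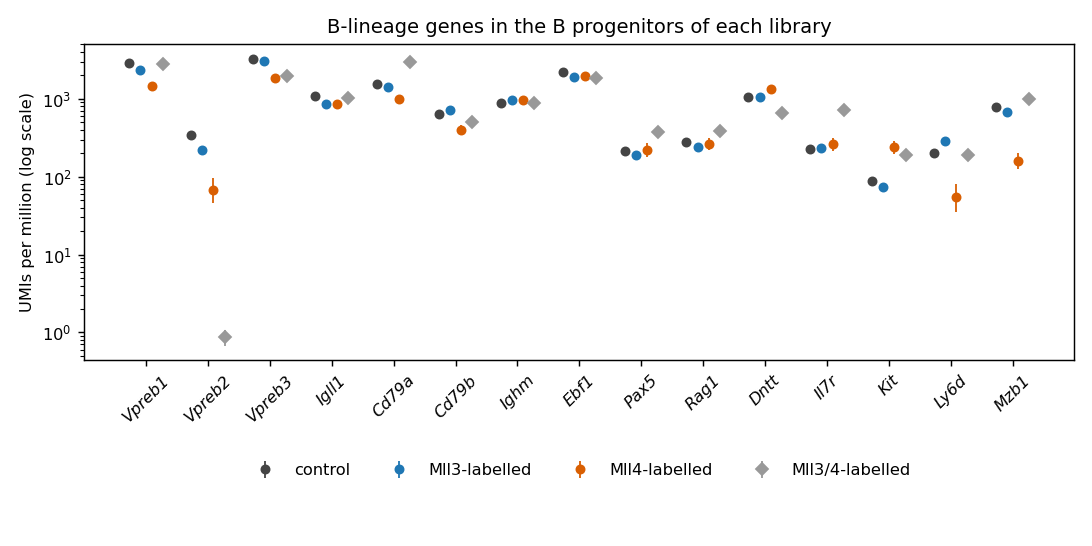
CPM, on a log scale, summed over the B progenitors of each library, with exact 95% Poisson intervals; colours mark the 4 libraries, and the Mll3/4-labelled library is drawn as grey diamonds. Vpreb2 falls from 342 in control to 67.1 in Mll4-labelled and 0.865 in Mll3/4-labelled members, while Ighm stays between 892 and 972.

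Genes of pre-B receptor signalling were mixed, with 1 of 17 past 2-fold in the Mll3-labelled and 2 of 17 in the Mll4-labelled comparison, at list medians of -0.03 and -0.02. Blnk, the adaptor of the receptor, stood at 370, 363 and 297 CPM in control, Mll3- and Mll4-labelled members. Fcrla, an Fc receptor-like protein of B cells, was past 2-fold higher in Mll3-labelled (48.8 against 19.3 CPM, log2 1.34) and past 2-fold lower in Mll4-labelled members (4.33 CPM from 2 UMIs, log2 -2.15). Without light chain cells, described below, the ratios were -0.25 and -2.12, and both intervals held 0. Cd22, an inhibitory receptor, was higher in Mll4-labelled members on 8 UMIs (log2 2.06, 0.64 to 3.35).

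Mzb1, a chaperone of the endoplasmic reticulum that helps B cells fold immunoglobulin, was an abundant gene with a low level in the Mll4-labelled library. It stood at 780 CPM in control, 688 in Mll3-labelled and 160 in Mll4-labelled members, and at 996 in Mll3/4-labelled members. The log2 ratio was -0.18 for Mll3-labelled and -2.28 (-2.64 to -1.95) for Mll4-labelled. Thinned cells with a UMI were 82.5%, 71.3% and 23.6% (93.5%, 86.4% and 30.1% unthinned). The low level was thus seen in the Mll4-labelled and not in the Mll3/4-labelled library.

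Of the B-lineage transcription factors few were past 2-fold. Pax5, the commitment factor, stood at 215, 190 and 221 CPM in control, Mll3- and Mll4-labelled members. Tcf3, which acts with Ebf1 at the start of the programme, stood at 205, 216 and 303 CPM, a log2 ratio of 0.56 (0.29 to 0.82) for Mll4-labelled. Ebf1, a rule gene given as a description, stood at 2240, 1909 and 1968 CPM, and Foxo1, which acts upstream of the Rag genes, at 106, 91.7 and 106 CPM. In Mll3/4-labelled members Pax5 reached 371 and Foxo1 477 CPM. Of 20 factors tested in the Mll3-labelled comparison 5 were higher and 15 lower, with a median of -0.20, beside 39.4% of all tested genes higher. Ikzf3 (Aiolos) was the 1 past 2-fold, on 46 against 15 UMIs (log2 1.75, 0.88 to 2.69), and its ratio without light chain cells was 1.03 (-0.71 to 2.95). Of 19 tested in the Mll4-labelled comparison 15 were higher and 4 lower, with a median of 0.31, beside 57.7% of all tested genes higher. Of the 19 intervals 6 lay above 0 and 2 below. Irf4, a factor of late pre-B cells, was the 1 past 2-fold, at 71.5 against 34.4 CPM (log2 1.06, 0.46 to 1.61). Under TMM scaling its ratio was 0.82.

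The summed levels of the recombination genes Rag1 and Rag2 differed by less than 2-fold among the 3 libraries. Rag1 stood at 283, 240 and 266 CPM and Rag2 at 128, 106 and 143 CPM. Thinned cells with a Rag1 UMI were 47.4%, 41.99% and 20.2% (69.9%, 66.5% and 40.5% unthinned). The thinned Mll4-labelled share came from the 89 members with at least 2000 UMIs. With all members thinned to 1000 UMIs the shares were 30.5%, 26.4% and 25.8%. The gap to control changed with the depth and the cells used, so no order is read from these shares. Dntt stood at 1045, 1052 and 1329 CPM, a log2 ratio of 0.35 (0.22 to 0.47) for Mll4-labelled. Mll3/4-labelled members had 390, 132 and 660 CPM of Rag1, Rag2 and Dntt. In the list, 1 of 13 genes was past 2-fold in the Mll3-labelled comparison and none of 12 in the Mll4-labelled comparison, with medians of -0.07 and -0.02. The 1 was Polm, a polymerase of end joining, on 31 against 10 UMIs (log2 1.76), and its ratio without light chain cells was -0.01. A heavy chain variable (Ighv) UMI was found in 5.79% of control, 11.2% of Mll3-labelled and 3.68% of Mll4-labelled members, against 93.6% of Mll3/4-labelled members. Depth differed between these libraries, and the shares were not thinned. Summed Ighv stood at 7.55, 16.26 and 12.99 CPM in the same order, the last from 6 UMIs, against 407.5 in Mll3/4-labelled members. Mll4-labelled members thus lay below control by share and above it by CPM, so no order of them is read. Since 3′ counts need not read the variable part of a heavy chain, the amount of recombination was not tested by these UMIs.

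Interleukin-7 receptor and STAT5 genes leaned lower in Mll3-labelled members (1 higher and 11 lower of 12) and higher in Mll4-labelled members (9 higher and 3 lower of 12). Of all tested genes 39.4% and 57.7% were higher in these comparisons. Of the 12 intervals 3 lay below 0 in the first comparison and 3 above 0 in the second. Il7r, the receptor chain that supports survival and growth of B progenitors, stood at 228, 231 and 260 CPM in control, Mll3- and Mll4-labelled members and at 710 in Mll3/4-labelled members. List medians were -0.33 and 0.30, and the second was 0.06 under TMM scaling. No gene of 12 was past 2-fold in the Mll3-labelled comparison, although Bcl2 was with doublets removed (log2 -1.07, -1.76 to -0.42). There Socs2, a feedback inhibitor of cytokine signalling, came nearest with 41.8 against 74.3 CPM (log2 -0.83, -1.12 to -0.55). In the Mll4-labelled comparison 1 of 12 was past 2-fold: Bcl2, an inhibitor of cell death, at 69.3 against 21.9 CPM (log2 1.66, 1.03 to 2.26). Its hashtag parts were 101 and 46.6 CPM, above 22.9 and 20.9 in control. Of the Bcl2 family, 9 of 10 were higher in Mll4-labelled members and 3 past 2-fold, beside 57.7% and 7.07% of all tested genes. Of the 10 intervals 5 lay above 0 and 1 below. Beside Bcl2, the genes past 2-fold were Bcl2l11 (Bim), which promotes death, with log2 1.08 on 21 UMIs, and Bbc3 (Puma), also pro-death, with log2 2.15 on 8 UMIs. With doublets removed Bbc3 had 4 UMIs and an interval of -0.23 to 3.76. In the Mll3-labelled comparison none of 10 was past 2-fold.

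Early lymphoid genes moved in opposite directions in Mll4-labelled members. Kit stood at 88.0 CPM in control, 73.0 in Mll3-labelled, 238 in Mll4-labelled and 191 in Mll3/4-labelled members. Its log2 ratio in the Mll4-labelled comparison was 1.44 (1.12 to 1.75), and 1.29 with doublets removed. Erythroid reference cells had a Kit UMI in 17.9%, 17.8% and 25.3% of cells thinned to 2000 UMIs, and members in 17.5%, 13.8% and 28.1% (38.1%, 33.1% and 36.8% unthinned). Hes1, a target of Notch, stood at 147 against 69.5 CPM (log2 1.08, 0.68 to 1.47) and at 0.85 under TMM scaling. Ly6d, a surface protein of lymphoid progenitors committed to the B lineage, was lower: 54.1 CPM against 200.5 in control, 289 in Mll3-labelled and 192 in Mll3/4-labelled members. Its log2 ratio was -1.89 (-2.53 to -1.32) for Mll4-labelled and 0.53 for Mll3-labelled, or -1.39 and -0.08 without light chain cells. Ctla2a was also past 2-fold lower (12.99 against 49.2 CPM, log2 -1.92), although with doublets removed it rested on 2 UMIs and its interval (-4.52 to 0.50) held 0. Thus 4 of 14 genes were past 2-fold, 2 each way, at a list median of -0.04, and none of 14 in the Mll3-labelled comparison, at -0.02. Cd93, a receptor of immature B cells, stayed at 175, 172 and 165 CPM and was at 2.01 in Mll3/4-labelled members.

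The Mll3-labelled members held more light chain transcripts, carried by a minority of cells. Iglc1, a lambda light chain constant gene, stood at 215 CPM against 10.97 in control (log2 4.29, 3.86 to 4.76), and at 0 UMIs in Mll4-labelled members. Iglc2 stood at 112 against 26.8 CPM, Iglc3 at 71.7 against 28.3 CPM and the kappa gene Igkc at 197 against 88.9 CPM. In control the Iglc1 UMIs lay in the Hashtag1 part (27.3 CPM) and none in Hashtag2, while both Mll3-labelled parts were high (243 and 235 CPM). How UMIs were divided among these lambda genes was not tested and can be uncertain. Late pre-B and light chain genes past 2-fold higher numbered 7 of 15 (Il2ra on 18 against 8 UMIs, Cd2, Igkc, Iglc1, Iglc2, Iglc3 and Ms4a1), with a list median of 0.63 against -0.08 over all genes.

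Members with at least 3 Igkc or at least 3 Iglc1 to Iglc3 UMIs were 8.22% of control (44 cells, 6.04 to 10.9), 19.3% of Mll3-labelled (95 cells, 15.9 to 23.1) and 4.91% of Mll4-labelled members (8 cells, 2.14 to 9.44). Cells with at least 3 lambda UMIs numbered 12, 55 and 0, and held 97.0% of the lambda UMIs in control and 98.7% in Mll3-labelled members. Of these lambda cells 3, 14 and 0 also had a Ms4a1 UMI, a pattern of mature B cells that the rule removes only with Igkc. Vpreb1 and Igll1, both genes of the rule, together stood at 512 CPM in the lambda cells of the Mll3-labelled library and 34.2 in those of control. In cells with at least 3 Igkc UMIs they stood at 859 and 3588 CPM, the opposite direction. Without all light chain cells the list median was -0.27, Igkc -0.37 and Ms4a1 -1.99, and the log2 ratio of the share of members was -0.01. At 1000 genes and 3000 UMIs the list median was -0.04 and Igkc 0.40. The rule set aside 54 Mll3-labelled barcodes as mature B cells, against 7 in each of the other 2 libraries. The part of mature B cells in these values was not tested further.

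In Mll4-labelled members the same list was split, with 3 of 12 past 2-fold higher (Igkc, Irf4 and Cd74) and 3 lower (Iglc2, Iglc3 and Cd37), at a median of -0.20. Iglc1 was at 0 UMIs against 45 in control, a bound of -0.76 at 3 counts that does not reach 2-fold. Cd37, a tetraspanin of B cells, stood at 167 against 351 CPM (log2 -1.07, -1.42 to -0.74). Cells with an Igkc UMI after thinning to 2000 UMIs were 7.87% of 89 Mll4-labelled cells against 13.3% in control (16.6% against 17.8% unthinned). With all members thinned to 1000 UMIs they were 13.5% against 8.60%, the direction of the CPM. The direction thus changed with the depth and the cells used, so no order is read from these shares.

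**Figure D3:**
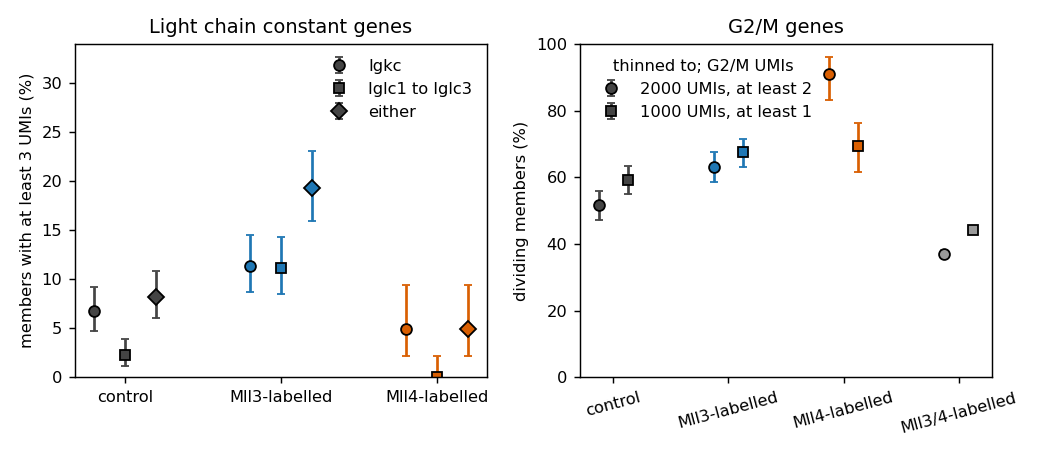
Left, the percentage of B progenitors with at least 3 UMIs of Igkc, of Iglc1 to Iglc3 or of either, by library. Right, the percentage that had G2/M gene UMIs after thinning to equal depth, for 2 depths; bars are exact 95% intervals, the Mll3-labelled library is highest on the left (19.3% for either kind), and the Mll4-labelled value on the right is 91.0% at 2000 UMIs (at least 2 G2/M UMIs, 89 cells) and 69.3% at 1000 UMIs (at least 1, 163 cells).

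Cell cycle genes were higher in Mll4-labelled members in the S phase list and less so in the G2/M list. Of 18 S phase genes 14 were higher and 5 past 2-fold, beside 57.7% and 7.07% of all tested genes, at a median of 0.71: the replicative helicase genes Mcm2 (1.12), Mcm5 (1.36), Mcm6 (1.37) and Mcm7 (1.30), and Ung (1.09), which removes uracil from DNA. Of 20 G2/M genes 16 were higher with 1 past 2-fold, the mitotic kinase gene Aurka (log2 1.24), at a median of 0.18 that was -0.06 under TMM scaling. In Mll3-labelled members no gene of either list was past 2-fold, with medians of 0.09 and -0.04. Btg1, which restrains division, was the 1 of 11 cell cycle inhibitors and D cyclins past 2-fold in Mll4-labelled members (429 against 189 CPM, log2 1.18), and 0.95 under TMM scaling. None of 11 was in the Mll3-labelled comparison.

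Members with at least 2 G2/M UMIs after thinning to 2000 UMIs are called dividing. They were 51.6% in control (259 of 502, 47.1 to 56.0), 63.2% in Mll3-labelled (280 of 443, 58.5 to 67.7), 91.0% in Mll4-labelled (81 of 89, 83.1 to 96.0) and 37.0% in Mll3/4-labelled members. Thinning left out 33, 49 and 74 shallower cells of the first 3 libraries. With all cells at 1000 UMIs and at least 1 G2/M UMI, the shares were 59.3%, 67.5%, 69.3% and 44.1%, and unthinned, at 10 per 10000 UMIs, 44.7%, 54.5%, 63.2% and 30.5%. Erythroid reference cells were dividing in 88.0%, 90.0% and 90.2%. Mll3- and Mll4-labelled shares lay above control in these 3 measures. At 1000 UMIs the intervals were 55.0 to 63.4, 63.1 to 71.6 and 61.6 to 76.3. They overlap, so no order of Mll3- and Mll4-labelled is read. By the unthinned split, Mll4-labelled dividing members had a median of 3040 UMIs and the others 1333. The 2000-UMI cut thus left out a larger part of the others. The measures differ in depth, in the UMIs asked for and in the cells used.

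Dividing and other members were compared within each library. For this the unthinned split was used, with 239 and 296 cells in control, 268 and 224 in Mll3-labelled and 103 and 60 in Mll4-labelled. A score was split, not a cell type: 77, 86 and 14 cells lay at 5 to 10 G2/M UMIs per 10000 and 34, 63 and 21 at 10 to 20. Of 3854 genes tested, 237 were at least 2-fold higher in dividing members of each library (6.15%) and 53 lower (1.38%). Other genes differed in sign between libraries, such as H2-Ab1, with log2 ratios of 1.01, 1.26 and -0.70. G2/M genes chose the cells, so the many mitotic genes among the higher are no result. Rag1 was among the lower: 132 CPM in dividing and 671 in other members of control, 149 and 502 in Mll3-labelled, and 176 and 582 in Mll4-labelled. Lower in dividing members of each library were also Btg2, an inhibitor of division (166 against 616 CPM in control), and Kdm5b, a demethylase of histone H3 lysine 4 (23.0 against 136 CPM in control). Mxd4, a Myc antagonist, was lower likewise (50.3 against 219 CPM in control). Dividing members were deeper, with median UMIs of 11234 against 3344 in control, 9226 against 3264 in Mll3-labelled and 3040 against 1333 in Mll4-labelled, and the part of depth was not tested.

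The genes named by rule are the 12 in each direction whose interval lay farthest from 0, each with its ratio in erythroid reference cells of the same libraries. Camk2d, a calcium/calmodulin-dependent kinase subunit on chr3:126596302-126846326 (plus strand, GRCm38), was higher in Mll3-labelled members. In erythroid cells its ratio was -1.11, at a low level of 1.15 against 2.49 CPM (86 against 180 UMIs). Whether those erythroid UMIs are free RNA was not tested. In members Camk2d stood at 172 CPM in control, 494 in Mll3-labelled, 422 in Mll4-labelled and 576 in Mll3/4-labelled. The log2 ratio was 1.52 (1.40 to 1.65) for Mll3-labelled and 1.30 (1.06 to 1.53) for Mll4-labelled. Hashtag parts were 185 and 183 CPM in control and 573 and 474 in Mll3-labelled members, so they did not overlap. Thinned cells with a Camk2d UMI were 36.1%, 63.7%, 52.8% and 63.8% (63.7%, 85.0%, 63.2% and 94.5% unthinned), against at most 0.501% of thinned and 11.4% of unthinned erythroid cells in the first 3 libraries. All 3 deletion-labelled libraries were therefore above control.

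Eya1, a transcriptional coactivator with phosphatase activity on chr1:14168954-14310235 (minus strand), was higher in Mll3-labelled members at a low level. It had 66 UMIs in 56 cells against 12 UMIs in 12 control cells (17.6 against 2.92 CPM, log2 2.59, 1.69 to 3.61). Mll4-labelled members stood at 8.66 CPM from 4 UMIs, and Mll3/4-labelled members at 95.8 CPM. Further genes of this direction were Cenpv, linked to centromeres (log2 1.86), Gstp1, a glutathione transferase (1.71), Lyrm7 (2.22), 3830403N18Rik (4.52 on 21 against 1 UMIs), Pttg1, the securin (2.42), Gm10076 (1.54) and the histone genes Hist1h2ap (1.70) and Hist1h2br (1.42). In erythroid reference cells Pttg1 stood at 1.61, Lyrm7 at 1.95, Hist1h2ap at 1.71, Gm10076 at 1.51, Hist1h2br at 1.05, 3830403N18Rik at 2.26 and Igkc at 2.78, and Gstp1 was 71.4 against 35.7 CPM. Cenpv was at 0.69 in Hashtag2 cells alone and 3830403N18Rik at 0.70 in Hashtag1 cells alone.

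Some genes were at or near 0 in Mll3-labelled members. Slc15a2, a peptide transporter, had 57 UMIs in 52 control cells and none in Mll3- or Mll4-labelled members, at least 4.12 lower on the log2 scale in the former when 3 counts are assumed. Erythroid reference cells likewise had 0 Slc15a2 UMIs when Mll3-labelled, against 176 when control. Camk2b, a sister subunit of Camk2d, had 2 UMIs against 37 (log2 -4.08), and was at 0 in Mll4-labelled members. Fnbp1l, a membrane-curving adaptor, had 9 UMIs against 82 (log2 -3.06), and its ratio in erythroid cells was -1.74. Spaca1 had 0 against 23, a bound of -0.53 in Hashtag2 cells alone, and its ratio in erythroid cells was -2.48. The other 8 named genes were of granulocytes and monocytes: Ifitm6, Chil3, Lyz2, Lcn2, Ltf, S100a9, Clec4a2 and Ngp. Their log2 ratios ran from -2.12 (Ifitm6) to -1.49 (Ngp). With doublets removed, 7 of the 8 no longer reached 2-fold: S100a9 went from -1.59 to -0.34 and Lcn2 from -1.68 to -0.07, while Clec4a2 stood at -1.05.

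Most of the summed granule RNA lay in few members, but low counts were found in most members. The median member had 12, 10 and 12 UMIs of S100a8 and S100a9 in control, Mll3- and Mll4-labelled libraries. The median erythroid reference cell had 21, 17 and 22.5. S100a8 and S100a9 together made up 18342 CPM in control, 6753 in Mll3-labelled and 22006 in Mll4-labelled members, and 1817, 1523 and 4594 with doublets removed. Cells with at least 100 such UMIs numbered 21, 6 and 6, were all called doublets and held 91.5%, 80.1% and 81.6% of these UMIs. Doublet calls took 49 (9.16%), 31 (6.30%) and 14 (8.59%) members. The 20 granulocyte and monocyte markers summed to 30240, 12296 and 33099 CPM in members, more than the B-lineage markers, and to 66381, 46200 and 185730 CPM in all other barcodes, with Csf1r at 0 in Mll4-labelled. In that list 9 of 19 were past 2-fold lower in the Mll3-labelled comparison, beside 3.01% of all tested genes. The median was -0.98, and -0.23 with doublets removed. In the Mll4-labelled comparison 3 of 19 (Mpo, Cebpa and Retnlg) were past 2-fold higher, beside 7.07% of all tested genes. The median there was 0.16, and 0.78 with doublets removed.

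Of the 12 named genes higher in Mll4-labelled members, 9 were at least 2-fold higher in erythroid reference cells too. They were Gm10076 (2.85 in members and 2.82 in erythroid cells), Hist1h2ap (2.44 and 2.23), Hist2h2aa1 (2.38 and 1.70), Pttg1 (2.26 and 1.47), Atp5k (1.65 and 1.66), Hspa8 (1.47 and 1.65) and the ribosomal protein genes Rps29 (1.81 and 1.80), Rps28 (1.69 and 1.77) and Rpl38 (1.53 and 1.58). The other 3 were Enpep (2.10, with 2 control and no Mll4-labelled erythroid UMIs), Ppic, a prolyl isomerase (2.36 and 0.22), and Ipmk, an inositol phosphate kinase (1.91 and 0.43). Over all genes past 2-fold, 42 of 340 with an erythroid value in the Mll3-labelled comparison and 248 of 901 in the Mll4-labelled comparison were at least 2-fold the same way in erythroid cells.

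Lower in Mll4-labelled members were, beside Mzb1, Vpreb2 and Ly6d, Lgals1, a galectin that binds the pre-B receptor from outside (99.6 against 432 CPM, log2 -2.12), and Ltb, lymphotoxin beta (21.7 against 106 CPM, -2.28). Lgals1 was lower in erythroid cells too (-1.21). The Ltb ratio there, -2.05, rested on 1 Mll4-labelled UMI against 46 in control (0.154 against 0.636 CPM) and is too sparse to read. Myl10, a myosin light chain gene (-2.11, and -0.75 in Hashtag2 cells alone), Arl5c, a small GTPase gene (-1.97), and Pafah1b3 (-1.84) were also lower, as was the antisense gene Gm26740 (-3.71). Jhy had 160 UMIs in control and none in Mll4-labelled members, which is at least 2.59 lower on the log2 scale at 3 counts. A630023P12Rik went from 132 UMIs to 0 and Vps51, of a vesicle tethering complex, from 86 to 0, while Vps51 in the Hashtag parts, at a bound of 3 counts, gave -0.88 and -0.44. Mll3/4-labelled members had none of Jhy, 0.168 CPM of Gm26740, 8.30 of Lgals1 and 0.336 of Myl10.

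**Figure D4:**
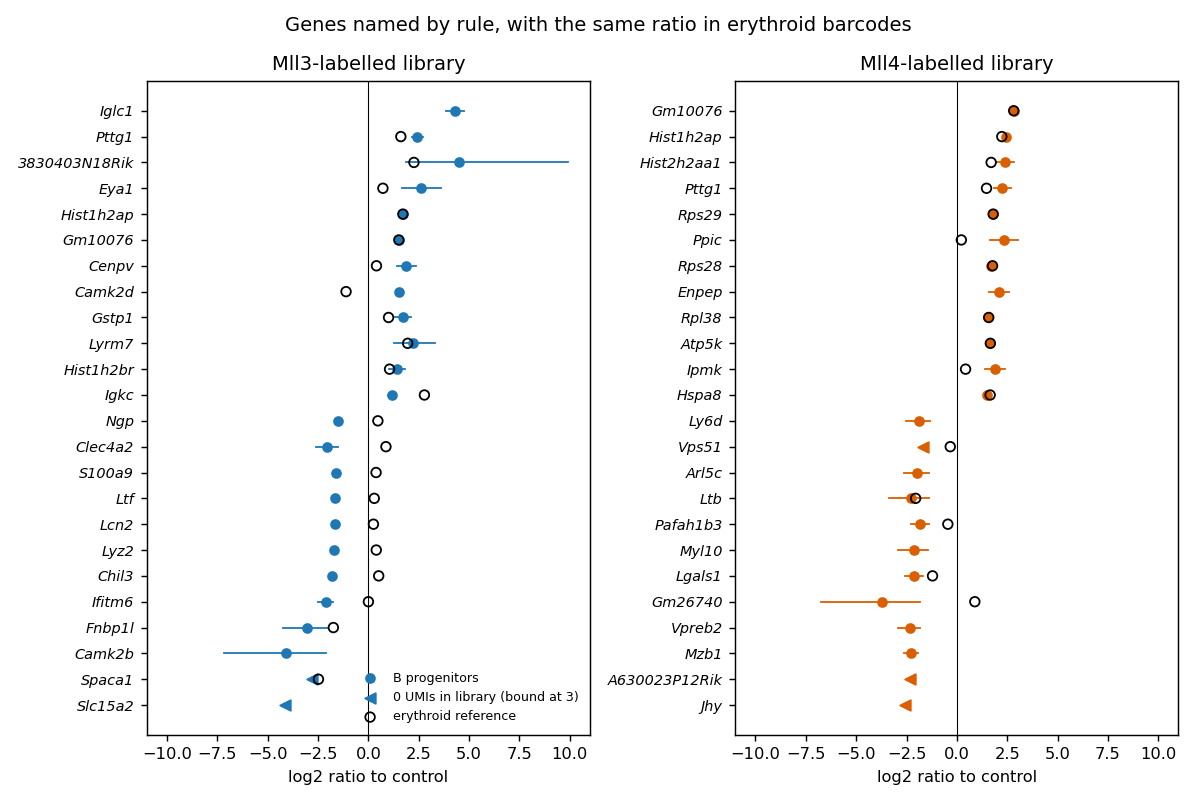
log2 ratio to control of the genes named by rule in the Mll3-labelled (left) and Mll4-labelled (right) library: filled circles are B progenitors with 95% counting intervals, triangles are bounds for genes at 0 UMIs, and open circles are erythroid reference cells where they had UMIs. On the right the highest genes have open and filled circles close together (Gm10076 at 2.82 and 2.85), while Enpep (2.10) has no erythroid value. Camk2d on the left has the opposite sign, at a low erythroid level (1.15 against 2.49 CPM).

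Enpep, the aminopeptidase known as the BP-1 antigen of early B cells (chr3:129269175-129332720, minus strand, GRCm38), was among the genes that are high in Mll3/4-labelled members. It stood at 25.8 CPM in control, 19.2 in Mll3-labelled, 110 in Mll4-labelled and 341 in Mll3/4-labelled members. The log2 ratio of the Mll4-labelled comparison was 2.10 (1.58 to 2.59), from 51 UMIs in 35 cells, none of them called a doublet. Its parts, 154 and 88.5 CPM, lay above the control parts of 33.4 and 23.8. Epha5, an ephrin receptor, had 1 UMI in control, 0 in Mll3-labelled and 19 in 10 Mll4-labelled members (41.1 CPM, against 153 in Mll3/4-labelled). Gria2, a glutamate receptor subunit, had 53 UMIs in 30 control members and 1 in Mll3-labelled members, with 565 CPM in Mll3/4-labelled members. Prlr, the prolactin receptor, stood at 6.09, 4.80, 10.8 and 360 CPM and Rnase12 at 34.4, 30.4, 47.6 and 699 CPM. Brinp3 was at 0 in the 3 libraries and at 72.9 CPM in Mll3/4-labelled members, and Cpne8 had 2, 0 and 0 UMIs against 109 CPM. The list was chosen from the Mll3/4-labelled library, and 8 of its 14 genes were tested in each comparison. All 8 were higher in the Mll4-labelled comparison and 2 past 2-fold (Enpep and Epha5), beside 57.7% and 7.07% of all tested genes. Of the 8 intervals only 2 lay above 0. In the Mll3-labelled comparison 2 were higher and 6 lower, with Eya1 past 2-fold higher and Gria2 lower, beside 39.4% of all tested genes higher.

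Antigen presentation and mast cell genes rested on a few cells. In the Mll4-labelled comparison 4 of 8 MHC class II genes were past 2-fold higher, beside 7.07% of all tested genes: H2-Eb1 (3.61), H2-Aa (2.64), Cd74 (2.22) and H2-Ab1 (1.04). Of the 380 UMIs of these 4 MHC class II genes, 8 of 163 members held 86.6% and 1 cell held 166. In control 21 members held 59.2% of 884, and in Mll3-labelled members 1 cell held 507 of 982. Without light chain cells H2-Ab1 stood at 0.16. In the Mll3-labelled comparison 1 of 9 was past 2-fold, H2-Eb1 at 1.04, which became -1.82 with doublets removed. All 5 tested basophil and mast cell genes (Cpa3, Mcpt8, Cma1, Hdc and Gata2) were past 2-fold higher in Mll4-labelled members, where 7 cells, 4 of them called doublets, held 92.0% of 251 UMIs of 5 such genes. The 10 basophil and mast markers summed to 630 CPM in Mll4-labelled, 34.4 in control and 39.4 in Mll3-labelled members, against 565, 165 and 105 in other barcodes, with Prss34 at 0 in each.

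Beside the granulocyte genes above, markers of other lineages were summed. The 15 erythroid markers summed to 466, 420 and 453 CPM in members against 7367, 6965 and 7608 in the erythroid reference. The 12 T, NK and innate lymphoid markers summed to 102, 75.2 and 90.9 CPM, against 255, 182 and 109 in all other barcodes, with Cd3e, Trbc2 and Il2rb at 0 in each library. The 10 plasmacytoid dendritic markers summed to 678, 518 and 602 CPM, close to the 615, 530 and 689 of all other barcodes, with Siglech and Klk1 at 0 in each. The 10 megakaryocyte markers summed to 134, 145 and 136 CPM, against 469, 500.3 and 482, with Ppbp at 0 in each. The 11 mature B and plasma markers, which include Mzb1, summed to 978, 895 and 457 CPM. Jchain was at 0 in control and Mll3-labelled and had 2 UMIs in Mll4-labelled members. Immediate early genes, induced by stress and signalling, had 4 of 12 past 2-fold higher (Fos, Egr1, Ier3 and Dusp1) and 1 lower (Zfp36) in the Mll4-labelled comparison, none in the Mll3-labelled one. Over all tested genes of the Mll4-labelled comparison 7.07% were past 2-fold higher and 2.8% lower.

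Surface antibodies, which the rule did not use, showed B220 and CD127 on the members. B220, the B-lineage form of CD45, had median counts of 193, 171.5 and 182 per cell in control, Mll3- and Mll4-labelled members, and of 4, 7 and 8 on other cells. CD127, the interleukin-7 receptor alpha chain, had medians of 30, 32 and 56, against 1, 2 and 3 on other cells. CD117, the product of Kit, had medians of 58, 58 and 88, below the 175, 232 and 111 of other cells. Gr1 had medians of 26, 30 and 54, against 32, 36 and 190 on other cells, and CD48 of 1038, 838 and 934. In Mll4-labelled members CD127, CD117 and Gr1 were thus higher than in control in both hashtag parts (58 and 52, 79 and 87.5, and 52 and 54). In the erythroid reference Gr1 was also higher, with medians of 23, 28 and 42, and CD127 stood at 1, 2 and 3 and CD117 at 198, 250 and 229.5. Antibody counts were not normalised between libraries. Mll3/4-labelled members differed from all 3, with medians of 14 for B220, 27 for CD48 and 261 for CD117. Dividing members had more CD127 than the others, with medians of 42 against 22 in control, 46.5 against 21 in Mll3-labelled and 61 against 43 in Mll4-labelled. They had less B220: 164 against 215, 165.5 against 181 and 176 against 193.

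**Figure D5:**
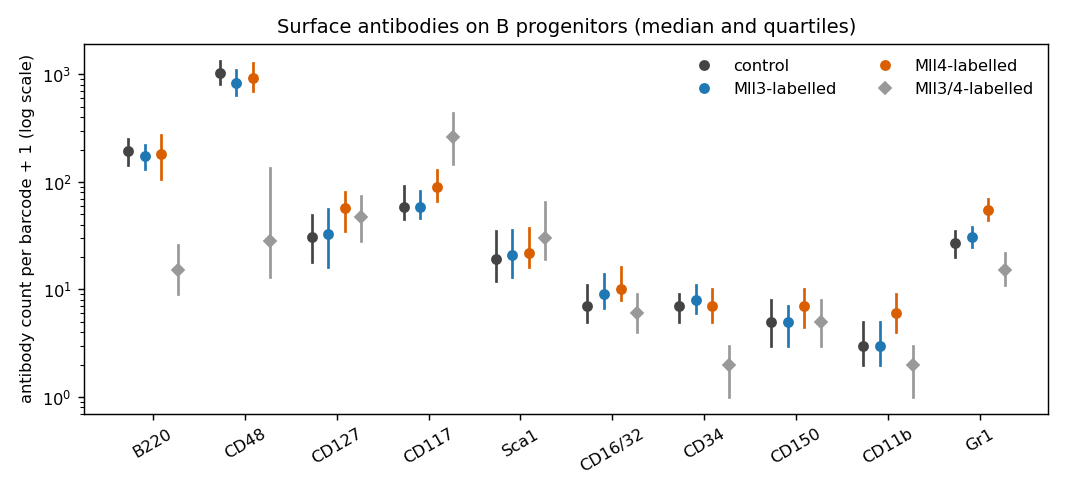
Antibody counts per cell plus 1, on a log scale, on the B progenitors of each library: points are medians and lines run between the quartiles. Control, Mll3- and Mll4-labelled members sit together for B220 (193, 171.5 and 182), while Mll3/4-labelled members have 14, and CD127 is highest in Mll4-labelled members (56).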

How the data were processed

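The deposited UMI counts of 4 libraries were used: the authors ran Cell Ranger 6.1.2 with build mm10, per the submitters' processing notes, on 10x 3′ libraries with antibody barcodes, and the counts are not normalized. They cover 32285 genes, 13 surface antibodies and 2 hashtags. Gene UMIs totalled 174795636 in control, 161119914 in the Mll3 library, 36413830 in the Mll4 library and 86721050 in the Mll3/4 library, and UMIs summed over members were 4103869, 3751994 and 461831 in the first 3.

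The members and gene lists were chosen with earlier results of these data known. Python 3.11.15, scipy 1.17.1 and scanpy 1.11.5 were used. Gene UMIs were summed over the members of a library and divided by their total, with exact conditional binomial 95% intervals for ratios, exact Poisson intervals for CPM and Clopper-Pearson intervals for shares. There is no test, since cells of 1 library are not replicates. Genes needed 20 UMIs over both libraries, and genes at 0 were bounded at 3 counts. The ratios and intervals were run on simulated Poisson counts, the model that the intervals assume. UMIs gathered in few cells were not simulated, so the run does not speak of such genes. TMM factors came from edgeR 4.0.16 in R 4.3.3. Named genes were the 12 tested genes per direction with the interval bound nearest 0 farthest from it. Xist, Tsix, Y-linked, mitochondrial and immunoglobulin segment genes were left out, as were genes with over 10% of their UMIs in 1 cell. List genes past 2-fold were named for some lists only, so a list gene that is not named can be past 2-fold too. Doublets were called by the highest Scrublet scores, 0.8% per 1000 barcodes (expected rate 0.06), or by hashtags of which neither held 80% of counts. They stayed in the values unless stated, and hashtag parts hold cells with at least 80% of 1 hashtag. The erythroid reference had at least 20 UMIs of its 6 genes and under 5 of the rule's genes per 10000. Positions are from GENCODE on GRCm38.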

Additional observations from a re-analysis of the deposited data

How the results depend on the processing

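Alternatives were run one at a time. Of 48 values for genes named by rule, all 48 stayed at least 2-fold the same way under TMM scaling, equal cell weights and a threshold of 40, 47 without light chain cells and at 5% mitochondrial UMIs, 46 with 1000 genes and 3000 UMIs, 44 at a threshold of 10, 46 and 44 in Hashtag1 and Hashtag2 cells, and 41 with doublets removed, where the 7 lost were granulocyte genes. Splitting by hashtag and leaving out light chain cells were chosen after seeing the data. No paired analysis was possible because each group has 1 library. In these shallow Mll4-labelled cells few UMIs limit every gene under about 10 CPM. Where no cause is given below, the cause was not tested.

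With at least 1000 genes and 3000 UMIs the member shares were 5.46%, 5.79% and 1.17% (control, Mll3- and Mll4-labelled), the Mll4-labelled share ratio was -2.23, and the late pre-B and light chain median of the Mll3-labelled comparison reversed to -0.04. In the Mll4-labelled comparison that filter gave -0.90 for B-cell progenitor markers, -1.20 for the pre-B receptor, 0.62 for granulocyte and monocyte and 1.17 for basophil and mast genes. The last of these medians rested on 3 genes. Keeping mature B cells gave a Mll3-labelled share of 8.61%. Hashtags are paired across libraries by their number only, which the labels do not support as a pairing. Hashtag1 cells alone gave shares of 5.84% and 8.92% in control and Mll3-labelled and a share ratio of 0.61. Hashtag2 cells gave shares of 7.89%, 6.71% and 3.38% and a Mll3-labelled ratio of -0.23.

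Without light chain cells the shares were 6.32% and 6.26% in control and Mll3-labelled and their ratio -0.01, and the Mll3-labelled medians were -0.20 for the pre-B receptor and -0.27, reversed, for late pre-B genes. Igkc reversed there to -0.37.

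At a rule threshold of 10 per 10000 the Mll3-labelled medians were -0.41 for B-cell progenitor markers, -0.31 for the pre-B receptor and 0.63 for erythroid genes. The Mll4-labelled medians were 1.19 for MHC class II, 0.52 for granulocyte and monocyte and -1.97 for erythroid genes. The main basophil and mast medians were -0.24 on 3 tested genes (Mll3-labelled) and 4.99 on 5 (Mll4-labelled). At 40 per 10000 these genes gave -0.86 on 3 genes (Mll3-labelled) and 3.11 on 4 (Mll4-labelled), and granulocyte and monocyte genes -0.69 (Mll4-labelled). With doublets removed basophil and mast genes gave -0.91 on 1 gene (Mll3-labelled) and 6.46 on 3 (Mll4-labelled). The genes tested thus changed with the setting, so these medians are not compared. Granulocyte and monocyte genes gave 0.78 with doublets removed (Mll4-labelled).

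TMM scaling gave 343 genes higher and 535 lower in the Mll4-labelled comparison, with list medians of -0.73 for B-cell progenitor markers, -0.94 for the pre-B receptor, -0.06 for G2/M and -0.08 for granulocyte and monocyte genes, and -0.07 for the pre-B receptor in the Mll3-labelled comparison. Weighting every cell equally gave 171 higher and 509 lower (Mll3-labelled) and 550 lower (Mll4-labelled), with Mll3-labelled medians of 0.22 for pre-B receptor signalling and 0.13 for G2/M, and Mll4-labelled medians of 1.03 for S phase and 0.52 for G2/M. Asking for at least 50 UMIs, which tests fewer genes, gave 41 higher and 162 lower (Mll3-labelled) and a basophil and mast median of 1.29 on 3 genes (Mll4-labelled). A pseudocount of 1 CPM with no minimum gave 531 lower (Mll4-labelled), with medians of 1.39 for MHC class II and -0.79 for megakaryocyte genes.

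Dividing shares were 59.3% in control and 69.3% in Mll4-labelled at 1000 UMIs, and 63.7% in control and 69.5% in Mll3-labelled by the S phase list.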
